A study of Mus musculus with 10 samples.

Results

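The 10 genes described here belong to the p53 pathway: *Trp53*, which encodes p53 itself, and 9 genes that p53 is known to activate, *Mdm2*, *Cdkn1a*, *Ccng1*, *Bbc3*, *Bax*, *Trp53inp1*, *Phlda3*, *Eda2r* and *Sesn2*. They were chosen by name, and all 10 were found in both tables of unique molecular identifiers (UMIs), 1 with 27998 genes and 1 with 32285. p53 is a transcription factor that is kept low by the ubiquitin ligase MDM2 and accumulates after DNA damage and other stresses. It then binds paired 10-base motifs near its targets, among them genes that halt the cell cycle, promote apoptosis or return p53 to its resting level. In pluripotent cells p53 is known for restraining self-renewal and for removing damaged or less fit cells around the time of epiblast priming.

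The study followed mouse embryonic stem cells (ESC) toward primordial germ cell-like cells (PGCLC), the in vitro counterpart of the founders of the germline, and asked how the enhancers of the PGCLC genes are prepared along the way. Male E14Tg2a ESC, wild type and grown in 2i plus LIF (2i ESC), were carried on fibronectin with Activin A, bFGF and KSR to epiblast-like cells (EpiLC) sampled on day 1, 2 and 3 (d1, d2 and d3 EpiLC), or kept with Activin A and bFGF over passages as epiblast stem cells (EpiSC). From d2 EpiLC, embryoid bodies (EB) were formed with BMP4, SCF, LIF and EGF and sampled on day 2 and day 4 (d2 and d4 EB), and E14Tg2a ESC kept in serum plus LIF (S+L ESC) were a further library. In a separate experiment d4 EB were made by the same protocol from R1 ESC, either wild type (WT) or from 1 clonal line in which MLL3 and MLL4, histone H3K4 methyltransferases of enhancers, are catalytically dead (dCD). EB are mixtures, and the study's list of PGCLC named 91 cells of the d2 EB and 44 of the d4 EB, leaving 446 and 324 other EB cells.

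Each condition was 1 library, so a condition and its library cannot be told apart and no p-value was computed. Each level is the UMIs of a gene scaled to 1000000 UMIs of the group (CPM), which is a share of the group's RNA. Fewer cells that express a gene and less of its RNA per cell therefore cannot be told apart in a library's sum. Each ratio of levels is followed by its exact 95% interval, which covers counting error only, and levels are said not to be told apart where it includes 1. A gene was called in a comparison when it differed at least 2-fold in CPM plus 1 and had at least 10 UMIs over both groups. The E14Tg2a libraries held 227 to 537 cells and 8757170 to 14649279 UMIs, and the R1 libraries 1416 WT cells with 20586629 UMIs and 1699 dCD cells with 22887974. The R1 libraries were made with a later version of the 10x chemistry, so levels were compared only within a table. EpiSC were dissociated with another enzyme (Accutase) than the other stages, which cannot be told apart from the stage. Immediate early and heat shock genes can respond to handling and to other signals. The summed level of 9 of them was 132 to 224 CPM in 2i ESC, d1 and d2 EpiLC, EpiSC and S+L ESC. It was 954 CPM in d3 EpiLC, 698 in d2 EB and 1133 in d4 EB. The listed PGCLC carried the label's markers: 6 PGC markers summed to 455 CPM in d2 PGCLC against 43.2 in the other d2 EB cells, and to 407 against 51.7 on day 4. The list came from the study's own clustering of these cells, so these markers are no independent check of it. No more than 2 cell barcodes were shared by any pair of libraries.

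The stretches upstream of the members were searched for the paired p53 motif without a spacer, the p53 response element, because this is the sequence that p53 binds. RefSeq gene starts (GRCm38.p6) were given for 9 of the 10 members, with *Trp53inp1* missing. These 9 members had 12 starts. Among the 250 bases before a start, 2 of the 12 held the motif with at most 1 mismatch in 20 bases, in *Cdkn1a* and *Ccng1*, against 0.0578% of all 32851 starts. With at most 3 mismatches 4 of the 12 starts held it, adding *Bbc3* and *Trp53*, against 1.14% of all starts. The motif reads the same on both strands, so both were covered, and the central C and G of each 10-base part were required. A match is a description of the letters and not a bound site, and no match in this window says nothing of p53 binding elsewhere in the gene. Both closest stretches follow whole, 5′ to 3′ in the direction of the gene, with the match in capitals:
*Cdkn1a* (chr17:29090729-29090978, + strand): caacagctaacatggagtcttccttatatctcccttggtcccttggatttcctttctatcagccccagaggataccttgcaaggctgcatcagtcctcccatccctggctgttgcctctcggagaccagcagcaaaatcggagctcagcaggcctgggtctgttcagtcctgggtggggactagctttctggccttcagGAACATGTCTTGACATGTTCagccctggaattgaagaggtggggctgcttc
*Ccng1* (chr11:40755287-40755536, − strand): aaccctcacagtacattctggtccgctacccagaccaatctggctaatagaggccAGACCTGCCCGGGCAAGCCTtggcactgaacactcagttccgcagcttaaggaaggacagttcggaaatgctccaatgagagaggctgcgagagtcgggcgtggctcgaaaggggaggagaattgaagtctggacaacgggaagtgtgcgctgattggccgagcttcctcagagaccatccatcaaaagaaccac
In *Cdkn1a* the match lay 51 to 32 bases before the start of an upstream transcript, and in *Ccng1* 195 to 176 bases before the start. The 4 matches follow alone, with capitals where a base follows the motif and lower case where it does not:
*Cdkn1a* (chr17:29090928-29090947, + strand): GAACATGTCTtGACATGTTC
*Ccng1* (chr11:40755462-40755481, − strand): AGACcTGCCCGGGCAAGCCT
*Bbc3* (chr7:16309486-16309505, + strand): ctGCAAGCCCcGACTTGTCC
*Trp53* (chr11:69580284-69580303, + strand): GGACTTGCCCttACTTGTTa

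*Trp53* (chr11:69580359-69591873, + strand), the gene of p53, was read in every library. Its level was 148 CPM in 2i ESC, 212, 127 and 75.6 in d1, d2 and d3 EpiLC, 198 in EpiSC, 170 and 148 in d2 and d4 EB, and 128 in S+L ESC. It was highest in d1 EpiLC and lowest in d3 EpiLC, a 2.80-fold range. The levels of d2 EpiLC and S+L ESC were not told apart, nor were those of 2i ESC and d4 EB. In the R1 libraries *Trp53* stood at 309 CPM in WT and 303 in dCD. A processed pseudogene, *Trp53-ps*, lies on chromosome 17 and could share reads with it, so these levels are uncertain to that extent.

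*Mdm2* (chr10:117688875-117710758, − strand) encodes the ubiquitin ligase that marks p53 for degradation and is itself switched on by p53, closing a feedback loop. Its level was 34.0 CPM in 2i ESC, 94.8, 41.1 and 42.1 in d1, d2 and d3 EpiLC, 59.0 in EpiSC, 31.3 and 46.9 in d2 and d4 EB, and 54.8 in S+L ESC. The d1 EpiLC library stood above the other 7, at 1.61 times the next, EpiSC. Neighbours that were not told apart were d2 EB and 2i ESC, the d2 and d3 EpiLC, d3 EpiLC and d4 EB, and S+L ESC and EpiSC.

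*Cdkn1a* (chr17:29090976-29100727, + strand) encodes p21, the cyclin-dependent kinase inhibitor through which p53 halts the cell cycle. Its level was 91.0 CPM in 2i ESC, 92.0, 45.5 and 105 in d1, d2 and d3 EpiLC, 143 in EpiSC, 34.1 and 53.4 in d2 and d4 EB, and 65.2 in S+L ESC. It was low in d2 EpiLC and both EB libraries and highest in EpiSC, a 4.20-fold range, with 2i ESC and d1 EpiLC the only neighbours not told apart. *Ccng1* (chr11:40748552-40755311, − strand) encodes cyclin G1, a direct p53 target that acts with protein phosphatase 2A on MDM2. Its level was 87.0 CPM in 2i ESC, 213, 142 and 166 in d1, d2 and d3 EpiLC, 288 in EpiSC, 71.6 and 81.0 in d2 and d4 EB, and 116 in S+L ESC. *Ccng1* shared its highest library, EpiSC, and its lowest, d2 EB, with *Cdkn1a*, and only d4 EB and 2i ESC were not told apart. A single cell held 76 of the 778 *Ccng1* UMIs of d4 EB. With cells thinned to one depth the mean was 1.13 UMIs per cell in d2 EB and 1.11 in d4 EB, so which of these was lowest is uncertain.

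The 2 genes of apoptosis had unlike orders, *Bbc3* being highest in d3 EpiLC and *Bax* in d1 EpiLC. *Bbc3* (chr7:16308393-16318205, + strand) encodes PUMA, a BH3-only protein that binds the anti-apoptotic BCL2 proteins, and rose from 16.9 CPM in 2i ESC through 45.2 in d1 and 62.2 in d2 to 106 in d3 EpiLC. It was 60.3 CPM in EpiSC, 24.6 and 33.8 in d2 and d4 EB, and 51.0 in S+L ESC, a 6.29-fold range and the widest of the 10 members. *Bax* (chr7:45461697-45466898, − strand), whose product permeabilises mitochondria, stood at 564 CPM in 2i ESC, 999, 718 and 476 in d1, d2 and d3 EpiLC, 646 in EpiSC, 474 and 400 in d2 and d4 EB, and 579 in S+L ESC. It had the narrowest range, 2.49-fold, and it overlaps *Gm45808* on the same strand, to which reads could also belong.

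The remaining members are a mixed group of p53 effectors. *Trp53inp1* (chr4:11156431-11174379, + strand) encodes a nuclear stress protein that promotes p53 activity, and was 12.3 CPM in 2i ESC, 43.7, 25.5 and 27.2 in d1, d2 and d3 EpiLC, 36.2 in EpiSC, 25.9 and 15.8 in d2 and d4 EB, and 31.0 in S+L ESC. *Phlda3* (chr1:135766119-135769136, + strand) encodes a repressor of the kinase AKT, and was 43.5 CPM in 2i ESC, 89.7, 60.7 and 105 in d1, d2 and d3 EpiLC, 170 in EpiSC, 56.5 and 82.9 in d2 and d4 EB, and 64.9 in S+L ESC. Both were lowest in 2i ESC, with *Trp53inp1* highest in d1 EpiLC and *Phlda3* in EpiSC. *Sesn2* (chr4:132492032-132510501, − strand) encodes sestrin 2, which holds back the growth regulator mTORC1 under stress, and ranged from 17.4 CPM in d4 EB to 66.7 in EpiSC. It stood at 43.8 to 51.0 CPM in 2i ESC and the 3 EpiLC libraries, which were not told apart as neighbours, and at 27.2 in d2 EB and 28.0 in S+L ESC. *Eda2r* (chrX:97333840-97377216, − strand), a receptor of the tumour necrosis factor receptor family, was the sparsest, with 35 UMIs in d2 EB and 156 in EpiSC, the fewest and the most. Its level was 5.14 CPM in 2i ESC, 13.5, 3.94 and 5.75 in d1, d2 and d3 EpiLC, 12.2 in EpiSC, 2.39 and 6.14 in d2 and d4 EB, and 10.1 in S+L ESC. Only d1 EpiLC, EpiSC and S+L ESC stood above 10 CPM. *Sesn2* overlaps *Gm12981* on its own strand, so a part of its UMIs could belong to that gene. *Cdkn1a* overlaps AC167363.2 only on the opposite strand, and whether reads of that gene were counted for *Cdkn1a* was not examined.

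**Figure D1:**
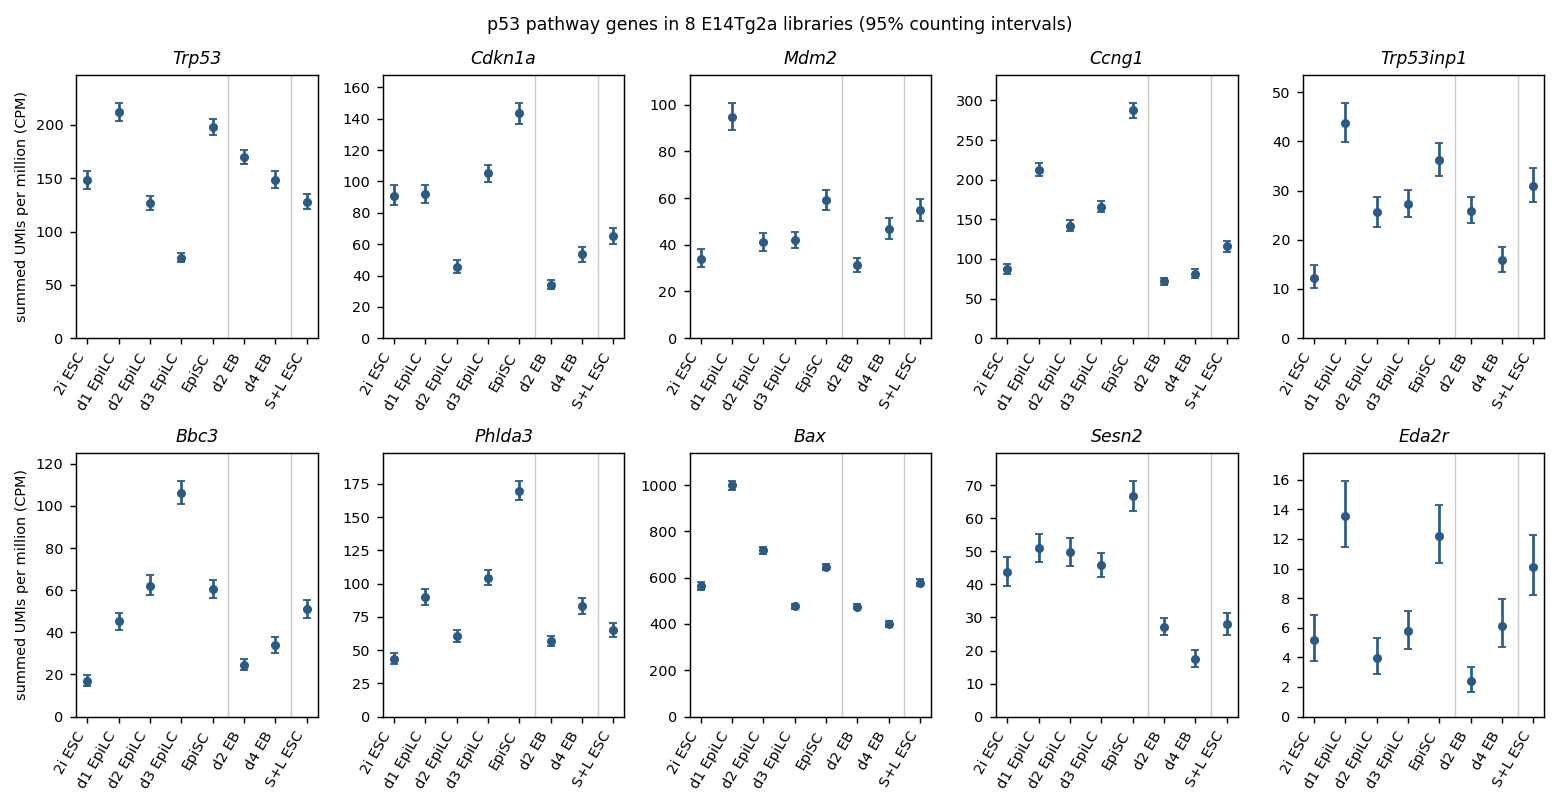
Level of each member, in CPM, in each of the 8 E14Tg2a libraries, with bars for the exact 95% Poisson interval (counting error only). *Mdm2* peaks at 94.8 CPM in d1 EpiLC, *Cdkn1a* and *Ccng1* at 143 and 288 CPM in EpiSC, and *Bbc3* at 106 CPM in d3 EpiLC.

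The first step of priming, from 2i ESC to d1 EpiLC, carried most targets up. Of the 10 members 6 were at least 2-fold higher in d1 EpiLC (*Mdm2*, *Ccng1*, *Trp53inp1*, *Bbc3*, *Phlda3* and *Eda2r*), where 12.1% of all genes tested were. The interval lay above 1 for 9 members, against 38.2% of genes, and the median log2 ratio of the 9 targets was 1.24, against 0.17 over all genes. *Trp53inp1* rose 3.55-fold (2.87 to 4.41), *Mdm2* 2.79-fold (2.45 to 3.18), *Bbc3* 2.67-fold (2.22 to 3.23) and *Ccng1* 2.44-fold (2.25 to 2.66). *Bax* rose 1.77-fold (1.71 to 1.83) and *Trp53* 1.43-fold (1.34 to 1.53). *Cdkn1a* was the exception, at 1.01 (0.921 to 1.11), while *Sesn2* rose 1.16-fold. With all 9 targets summed the level went from 897 to 1642 CPM, 1.83-fold (1.78 to 1.88).

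The next step reversed most of this. From d1 to d2 EpiLC 8 members had an interval below 1, against 24.3% of genes. Called lower were 2, *Mdm2* and *Eda2r*, against 6.28%. *Cdkn1a* was just past 2-fold lower in CPM but just short of it in CPM plus 1, so it was not called. *Mdm2* was at 0.433 of its d1 level (0.387 to 0.484), *Eda2r* at 0.291 (0.203 to 0.410), *Cdkn1a* at 0.495 (0.444 to 0.551) and *Trp53* at 0.599 (0.560 to 0.640). *Bbc3* went the other way, 1.38-fold up (1.23 to 1.55), and *Sesn2* was at 0.975 (0.866 to 1.10). The median of the 9 targets was −0.58 in log2, against 0.10 over all genes.

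On day 3 the members did not move as a group. Between d2 and d3 EpiLC *Cdkn1a* rose 2.31-fold (2.09 to 2.56), the 1 member called, against 3.44% of genes called higher. *Phlda3* rose 1.72-fold (1.57 to 1.89), *Bbc3* 1.71-fold (1.56 to 1.87) and *Ccng1* 1.17-fold (1.09 to 1.24). *Bax* fell to 0.663 (0.641 to 0.684) and *Trp53* to 0.595 (0.549 to 0.645) of the d2 level. Summed, the 9 targets were at 0.939 (0.917 to 0.961), a sum that *Bax* turned: without it the other 8 were 1.40-fold higher (1.35 to 1.45). The median log2 ratio of the 9 was 0.22, against −0.02 over all genes. The d3 EpiLC library was also the one with 954 CPM of immediate early and heat shock genes, against 174 in d2 EpiLC, and 11 genes of S phase summed to 774 against 1334 CPM. The part of these in the ratios was not tested.

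EpiSC, which have little competence to give PGCLC, differed from germline-competent d2 EpiLC in 4 members called higher (*Cdkn1a*, *Ccng1*, *Phlda3* and *Eda2r*), against 8.47% of genes. *Cdkn1a* was 3.15-fold higher (2.85 to 3.48), *Eda2r* 3.10-fold (2.21 to 4.44), *Phlda3* 2.80-fold (2.56 to 3.05) and *Ccng1* 2.02-fold (1.91 to 2.15). *Mdm2*, *Sesn2*, *Trp53inp1* and *Trp53* were 1.34 to 1.56 times as high. The apoptosis genes did not share in this, with *Bbc3* at 0.970 (0.874 to 1.08) and *Bax* at 0.899 (0.871 to 0.927). Against d3 EpiLC, 9 of 10 members had an interval above 1, where 38.3% of genes did, and *Bbc3* was at 0.568 (0.520 to 0.620). *Trp53* alone was called higher there, 2.62-fold (2.44 to 2.82), against 7.95% of genes.

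Most targets were lower in d2 EB than in d2 EpiLC, while *Trp53* was higher. Of the 9 targets 7 had an interval below 1, against 31% of genes, and *Bbc3* was called lower at 0.395 (0.347 to 0.449), against 9.79% of genes. *Ccng1* was at 0.504 (0.465 to 0.545), *Sesn2* at 0.546 (0.479 to 0.622), *Bax* at 0.660 (0.639 to 0.681), *Cdkn1a* at 0.750 (0.661 to 0.850) and *Mdm2* at 0.763 (0.669 to 0.871). *Trp53* was 1.34-fold higher (1.25 to 1.43), and *Trp53inp1*, at 1.02 (0.869 to 1.19), and *Phlda3*, at 0.931 (0.840 to 1.03), could not be told from 1. Summed, the 9 targets were at 0.650 (0.634 to 0.667) of their level in d2 EpiLC. Between these libraries genes of G2 and M phase went from 1437 to 901 CPM in sum (7 of 9 were at least 1.5-fold lower), genes of S phase from 1334 to 922, and markers of extraembryonic mesoderm from 0.0896 to 871 CPM. The part of these in the ratios was not tested. From d2 to d4 EB the 9 targets summed to 0.987 (0.958 to 1.02) of the d2 level, but to 1.23 (1.18 to 1.29) without *Bax*, which was at 0.845, and their median log2 ratio was 0.45, against 0.11 over all genes. Single targets differed more, with *Eda2r* 2.57-fold higher (1.66 to 4.03) and called, against 9.73% of genes, *Cdkn1a* 1.57-fold (1.38 to 1.77) and *Mdm2* 1.31 to 1.71 times (95% interval) as high, and *Trp53inp1* at 0.610 and *Sesn2* at 0.640. Adjacent comparisons share a library, so a high d1 EpiLC library raises the first ratio and lowers the second.

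**Figure D2:**
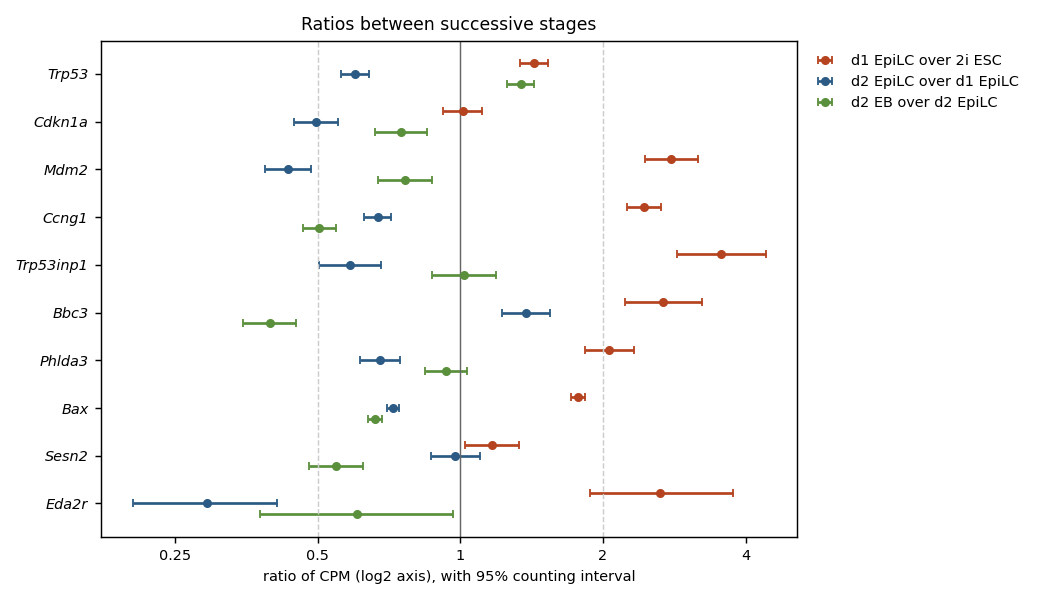
Ratio of CPM of each member for d1 EpiLC over 2i ESC, d2 over d1 EpiLC and d2 EB over d2 EpiLC, on a log axis, with bars for the exact 95% interval (counting error only). Most members lie above 1 from 2i ESC to d1 EpiLC and below 1 from d1 to d2 EpiLC, with *Bbc3* above 1 in both and at 0.395 in d2 EB.

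The ESC states differed as well. In S+L ESC *Bbc3* was 3.02-fold (2.51 to 3.65) and *Trp53inp1* 2.51-fold (2.01 to 3.16) the level of 2i ESC, the 2 members called higher, against 9.73% of genes. *Mdm2* was 1.61-fold higher, while *Cdkn1a* was at 0.717 (0.645 to 0.796), *Sesn2* at 0.639 (0.546 to 0.747) and *Bax* at 1.03 (0.989 to 1.07).

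Another list, of 27 other p53 targets, none of them members, was followed through the same comparisons. From 2i ESC to d1 EpiLC 12 of 27 were called higher and 4 lower, where 12.1% of all genes were higher and 6.54% lower, with a median log2 ratio of 0.72. The largest rises were those of *Pmaip1*, which encodes the BH3-only protein NOXA (0.457 to 23.1 CPM), *Plk2* (3.43 to 21.5 CPM), *Perp*, *Zfp365*, *Plk3* and *Pidd1*. From d1 to d2 EpiLC 2 were higher and 5 lower, against 9.91% and 6.28% of all genes, with a median of −0.49. In EpiSC 7 of 26 were higher and 2 lower than in d2 EpiLC, against 8.47% and 6.13% of all genes, among them the desmosomal *Perp* at 86.1 against 6.45 CPM, and *Pmaip1* at 0.313 against 29.5 CPM. In d2 EB 3 of 26 were higher and 8 lower than in d2 EpiLC, against 13.1% and 9.79% of all genes. Of the p53 regulators, 2 of 17 were higher in d1 EpiLC than in 2i ESC, *Trp53bp1* (27.2 against 4.91 CPM) and *Trp73* (8.55 against 1.14 CPM), and none was lower, a share of higher genes near the 12.1% of all genes.

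Across the 8 E14Tg2a libraries the targets followed each other more closely than they followed *Trp53*. As a description over 8 libraries that also differ in depth and cell type, the Pearson r of log2(CPM + 1) between 36 pairs of targets ranged from 0.13 to 0.89, with a median of 0.60. That of *Trp53* with a target ranged from −0.50, with *Bbc3*, to 0.47, with a median of 0.15. The r between pairs of all genes was not computed, so these values have no background beside them. The closest pair was *Mdm2* and *Eda2r*. Among 8958 genes the patterns most like that of *Trp53* were those of *Ddx23*, *Rbm25* and *Polr2a* (r from 0.95 to 0.96), and those most like *Cdkn1a* were *Ercc8*, *Pqlc3* and *Gltp* (0.86 to 0.94). For *Mdm2* they were *Smagp*, *Pbld2* and 4833407H14Rik (0.96 to 0.97), and for *Ccng1* *Ago1*, *Sms* and *Nectin1* (0.97).

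The listed PGCLC were set against the other cells of the same EB. On day 2 no member was called (6.06% of genes were called higher and 10.3% lower), and 4 had an interval above 1, against 16% of genes, with 1 below, against 25.4%. *Sesn2* was 1.81-fold higher in d2 PGCLC (1.45 to 2.24; 42.3 against 23.4 CPM), *Trp53inp1* 1.57-fold (1.24 to 1.96), *Cdkn1a* 1.45-fold (1.18 to 1.77) and *Bax* 1.26-fold (1.20 to 1.34). *Ccng1* was at 0.789 (0.666 to 0.930) and *Mdm2* at 0.961 (0.754 to 1.21). With the PGCLC and the other cells of both days pooled no member was called either, against 6.41% of genes higher and 14.6% lower.

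On day 4 the difference was wider. *Cdkn1a* stood at 112 CPM in d4 PGCLC and 46.2 in the other d4 EB cells, 2.42-fold higher (1.95 to 2.98), and *Mdm2* at 89.1 against 41.6 CPM, 2.14-fold higher (1.69 to 2.69). *Trp53inp1* was 2.90-fold (1.97 to 4.19) and *Eda2r*, from 15 and 44 UMIs, 2.76-fold higher (1.43 to 5.06). These were the 4 members called higher, where 8.64% of all genes were higher and 31.3% lower, and the median of the 9 targets was 0.73 in log2, against −0.46 over all genes. *Sesn2* (1.70-fold), *Trp53* (1.46-fold) and *Bax* (1.45-fold) were higher too, while *Ccng1* (0.968; 0.761 to 1.22), *Phlda3* (1.03; 0.820 to 1.29) and *Bbc3* (1.07; 0.744 to 1.51) could not be told from 1. In the d4 PGCLC, ribosomal protein genes took 43.2% of UMIs, against 31.2% in the other cells, 9 genes of G2 and M phase summed to 1323 against 875 CPM, and immediate early and heat shock genes to 266 against 1240 CPM. Erythroid markers summed to 28.4 against 1427 CPM. The part of these in the ratios was not tested. With scaling by the median gene in place of the total, chosen after the data were seen, the 9 targets together went from 1.48-fold to 1.62-fold higher and the same number of members, 4, was called.

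Among the PGCLC themselves *Mdm2* was 2.94-fold (2.17 to 3.97) and *Cdkn1a* 2.47-fold (1.91 to 3.19) higher on day 4 than on day 2, and *Eda2r* rose from 9 to 15 UMIs, or 3.07 to 14.2 CPM. These 3 were called, against 5.98% of genes, and *Sesn2* fell to 0.650 (0.418 to 0.981). *Trp53* differed by 1.13 (0.962 to 1.33). Compared with the d2 EpiLC they came from, d2 PGCLC had 2 members called lower, against 11.3% of genes. They were *Bbc3* at 0.345 (0.262 to 0.447) and *Ccng1* at 0.415 (0.353 to 0.486), while *Cdkn1a* was at 0.996 (0.816 to 1.21).

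**Figure D3:**
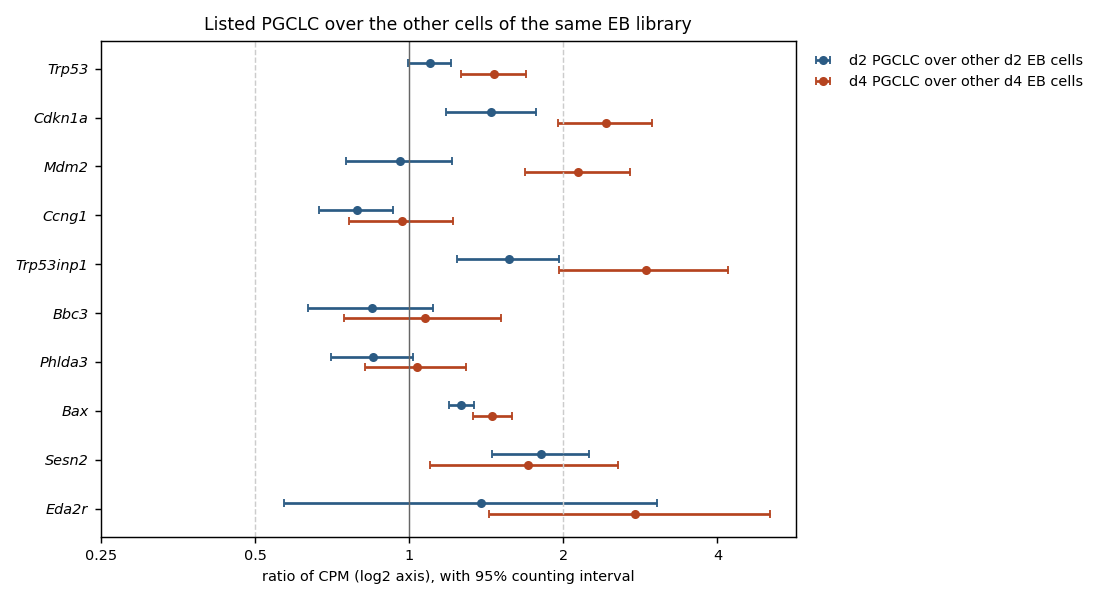
Ratio of each member in listed PGCLC over the other cells of the d2 EB and of the d4 EB, on a log axis, with bars for the exact 95% interval (counting error only). *Cdkn1a*, *Mdm2*, *Trp53inp1* and *Eda2r* lie above 2 on day 4, while *Ccng1*, *Phlda3* and *Bbc3* lie near 1.

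The counts of the pathway's other lists in the d4 PGCLC stand against 8.64% of all genes higher and 31.3% lower. Of 26 other p53 targets 7 were called higher and 3 lower: *Tigar*, which lowers glycolytic flux, was at 27.5 against 5.03 CPM, with *Psrc1*, *Gtse1* and *Ak1* also among the higher, and *Btg2* (29.4 against 105 CPM), *Perp* and *Fas* were lower. *Fas*, a death receptor, had 0 UMIs in the d4 PGCLC, which allows up to 2.84 CPM there, against 8.19 CPM in the other cells. Of 16 regulators 2 were higher and 1 lower. *Cdkn2a*, the gene of the MDM2 inhibitor ARF, was at 14.2 against 2.92 CPM and *Chek2*, a DNA damage kinase, at 12.3 against 3.16 CPM. In the d4 PGCLC 14.2 CPM is 15 UMIs, so both levels there rest on few UMIs. The lower one, *Hipk2*, a kinase of p53, was at 0.948 against 17.0 CPM. Its level in the d4 PGCLC lies below the 2.84 CPM that 0 UMIs allow. In the BCL2 family 2 of 12 genes were higher (*Bik* and *Bid*) and 6 lower, among them *Bak1* at 14.2 against 48.7 CPM. Another inhibitor of the cell cycle, *Cdkn1c*, went opposite to *Cdkn1a*, at 37.9 CPM in d4 PGCLC against 2213 in the other d4 EB cells.

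The EB cells were also divided by k-means on genes that left out the 10 members. In the d2 EB 3 clusters held 380, 98 and 59 cells, led by *Hoxc8*, *Pitx1* and *Hoxc9* (extraembryonic mesoderm-like), by *Tdh*, *Dppa3* and *Nanog* (86 of its cells were listed PGCLC) and by 3830417A13Rik, *Tinagl1* and *Igfbp2* (extraembryonic ectoderm-like). *Phlda3* was highest in the third, at 121 CPM, against 43.1 in the first (2.81-fold; 2.41 to 3.28), as was *Mdm2* at 50.4 against 26.7 CPM. *Trp53inp1* and *Sesn2* were highest in the PGCLC cluster. *Trp53* differed least, by 1.19-fold. In the d4 EB 4 clusters held 253 cells (led by *Ptn*, *Pitx1* and *Col3a1*, extraembryonic mesoderm-like), 49 cells, 37 cells (*Rhox6*, *Rhox9* and *Krt7*, extraembryonic ectoderm-like) and 29 cells (*Cldn5*, *Ctla2a* and *Emcn*, endothelium-like). The 49-cell cluster held all 44 listed d4 PGCLC and 5 cells rich in globin RNA, and was left unnamed because it carried both PGC and erythroid markers. *Cdkn1a* was 130 CPM in it, 59.0 in the extraembryonic ectoderm-like, 47.4 in the endothelium-like and 35.9 in the mesoderm-like cluster, a 3.62-fold range (2.91 to 4.50). *Ccng1* and *Phlda3* were instead highest in the extraembryonic ectoderm-like cluster, at 145 and 168 CPM, where *Trp53* was lowest, at 71.4 CPM.

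Over all cells WT and dCD d4 EB had nearly the same *Trp53*, 309 and 303 CPM, a ratio of 0.982 (0.949 to 1.02), while several targets were lower in dCD. Within the 5 clusters compared below, however, the ratio of *Trp53* was below 1 in each, with a median of 0.802 and the interval below 1 in 2. *Cdkn1a* fell from 236 to 126 CPM, or 0.535 (0.511 to 0.561), *Phlda3* from 179 to 127 CPM, or 0.706 (0.673 to 0.742), and *Ccng1* from 239 to 181 CPM, or 0.757 (0.726 to 0.789). *Mdm2* was at 0.813 (0.767 to 0.861) and *Bax* at 0.857 (0.835 to 0.881). In WT and dCD *Trp53inp1* stood at 81.4 and 85.9 CPM, *Bbc3* at 32.5 and 35.0, *Sesn2* at 24.5 and 27.1, and *Eda2r* at 20.6 and 19.5. The ratios of *Trp53inp1* (1.06; 0.989 to 1.13), *Bbc3* (1.08; 0.970 to 1.19), *Sesn2* (1.11; 0.984 to 1.25) and *Eda2r* (0.944; 0.825 to 1.08) could not be told from 1. No member was called, against 6.31% of genes higher and 3.68% lower, and 5 had an interval below 1, against 28.4% of genes. Of the 27 other targets 1 was higher in dCD (*Gdf15*, 5.59 against 1.46 CPM) and 2 lower (*Fas* and *Ak1*), and no p53 regulator was called.

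Marker levels and the shares of clusters differed between the genotypes. Markers of extraembryonic mesoderm summed to 978 CPM in WT and 224 in dCD, and those of the 2-cell stage to 0.0486 and 36.6. Those of extraembryonic ectoderm summed to 44.2 and 253 CPM, a difference carried mostly by *Rhox6* (4.23 and 110 CPM) and *Rhox9* (5.83 and 91.3). *Tfap2a* was higher in dCD too (12.6 and 26.4 CPM), while *Esx1* (10.5 and 12.6) and *Krt7* (10.0 and 12.0) were close. Genes of G2 and M phase summed to 1679 and 2276 CPM, and immediate early and heat shock genes to 642 and 422 CPM. The part of both gene sets in the ratios was not tested. Clustered together, the cells fell into 9 clusters, 4 of which held fewer than 20 cells of a genotype. Clusters 4 and 8 were nearly all dCD, with 401 of 403 and 207 of 209 cells, and a cluster mostly of 1 library may be that library rather than a cell type. Markers of the 2-cell stage (4 of 4) and of naive pluripotency (5 of 7) were at least 2-fold higher in cluster 8 than in the remaining cells. Comparisons of the genotypes could be made in the other 5, with 1230 WT and 889 dCD cells. *Cdkn1a* varied 8.90-fold over the clusters (7.19 to 11.1), from 36.8 CPM in the 167 cells of cluster 9 to 328 in the 339 cells of cluster 5. Cluster 9, 163 of whose cells were WT, was led by *Hbb-y*, *Hba-x* and *Hbb-bh1*, had the markers of both PGC and erythroid cells, and was left unnamed. There *Cdkn1a*, *Ccng1*, *Mdm2* and *Phlda3* were at their lowest and *Trp53* at its highest, 465 CPM. *Ccng1* (329 CPM), *Mdm2* (240 CPM) and *Phlda3* (333 CPM) were highest in cluster 6, the extraembryonic ectoderm-like one, which held 170 WT and 100 dCD cells and had *Vgll3* and *Ccl2* among its leading genes. That name is tentative, since only 3 of 6 extraembryonic ectoderm markers were at least 2-fold higher in it, beside 1 of 7 of extraembryonic mesoderm.

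Each of the 5 clusters was then given the same weight in both genotypes, the mean of its share of WT and of dCD cells. So weighted, the dCD over WT ratio of *Cdkn1a* was 0.815 in place of 0.535. Unweighted and without the 4 clusters of few cells of a genotype it was 0.441. Within clusters *Cdkn1a* was at 0.552 (0.455 to 0.673) in cluster 3, led by *Ttr*, *Nkx2-5* and *Six2*, at 0.727 (0.654 to 0.806) in cluster 6, and at 0.773 (0.604 to 0.976) in cluster 5 and 0.874 (0.723 to 1.05) in cluster 1, both extraembryonic mesoderm-like. In cluster 2, led by *Gm46332*, *Mylpf* and *Fam25c*, it was 1.70-fold higher in dCD (1.35 to 2.17; 81.4 against 47.9 CPM). *Bax* and *Trp53* were below 1 in all 5 clusters, with the interval below 1 in 4 and in 2, and a median ratio of 0.842 and 0.802. *Mdm2* was lowest in cluster 6, at 0.486 (0.430 to 0.550; 147 against 302 CPM), and below 1 in 3 of the 5 clusters. The 9 targets together were between 0.744 and 1.01.

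**Figure D4:**
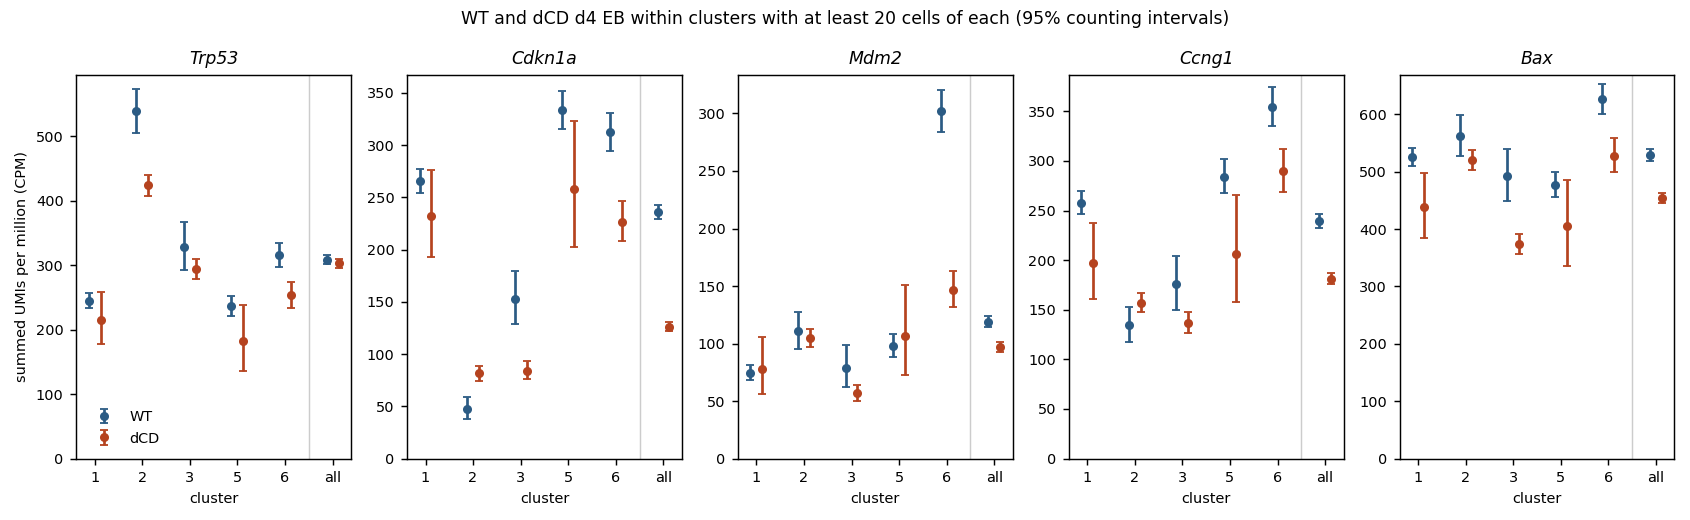
Level of 5 members, in CPM, in WT and dCD cells of the 5 d4 EB clusters with at least 20 cells of each genotype and in all cells, with bars for the exact 95% Poisson interval (counting error only). *Cdkn1a* is lower in dCD in 4 clusters, with the interval of the ratio below 1 in 3, and higher in cluster 2 (81.4 against 47.9 CPM). *Bax* is lower in dCD in all 5, with that interval below 1 in 4.

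Within a library, the cells that carried a *Cdkn1a* UMI also carried more UMIs of the other targets. Every cell was thinned to the same number of UMIs, 15374 in the E14Tg2a and 6831 in the R1 libraries, which left 91 to 803 cells with and 66 to 925 cells without a *Cdkn1a* UMI per library. Shallower cells were left out, from 223 of 227 kept in 2i ESC to 331 of 368 in d4 EB, with 1366 of 1416 in WT and 1529 of 1699 in dCD. The 8 other targets together were higher in the cells with a *Cdkn1a* UMI in 10 of 10 libraries, with the interval above 1 in 9. The ratio went from 1.06 in S+L ESC to 1.63 in d4 EB, with a median of 1.27, and from 1.02 to 1.80 with a median of 1.32 without thinning. Across all genes tested 44.2% to 57.3% had a ratio above 1, and 2.17% to 18.9% had the interval above 1, depending on the library.

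Among single members the interval was above 1 in 10 of 10 libraries for *Ccng1*, 9 for *Phlda3*, 8 for *Trp53inp1*, 7 for *Mdm2*, 6 each for *Bbc3* and *Bax*, and 4 each for *Sesn2* and *Eda2r*. *Mdm2* had a ratio of 2.57 in d1 EpiLC and 0.892 in d2 EB, and *Phlda3* reached 2.69 and *Ccng1* 2.56 in d4 EB. *Trp53* did not go with them: its ratio was above 1 in 4 of 10 libraries, with the interval above 1 in 1 and below 1 in 3, from 0.786 in EpiSC to 1.24 in d2 EpiLC. Compared within clusters, an alternative chosen after the data were seen, the ratio for the 8 targets was 1.26 in d2 EB, 1.53 in d4 EB, 1.47 in WT and 1.39 in dCD. It was above 1 in each cluster compared, 3 of 3, 4 of 4, 7 of 7 and 8 of 8. A cell is a unit of description here and not a replicate.

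**Figure D5:**
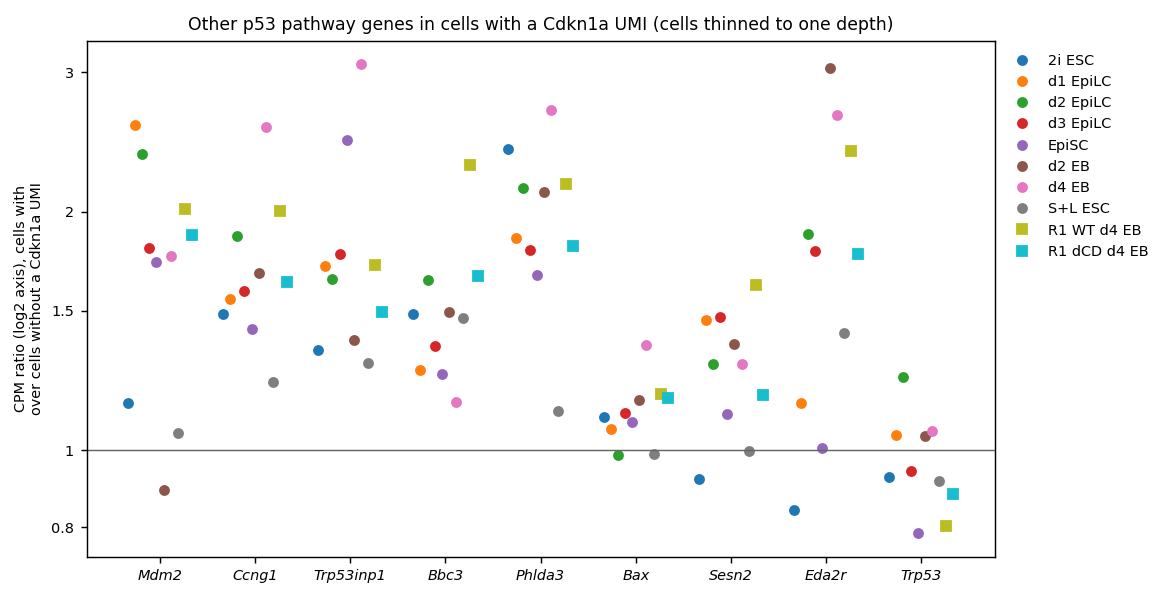
Ratio of CPM of each other member in cells with over cells without a *Cdkn1a* UMI after thinning to an equal depth, in each of the 10 libraries, on a log axis. *Ccng1* lies above 1 in all 10 libraries, and *Trp53* lies between 0.786 and 1.24.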

How the data were processed

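Droplet single-cell RNA-seq (10x) was read as UMI counts per gene and cell, deposited by the authors as raw counts in 1 table for the 8 E14Tg2a libraries and 1 for the 2 R1 libraries. Per the labels and the study's methods, the E14Tg2a reads were processed with Cell Ranger 2.1.0 on mm10 and the libraries aggregated to an equal number of mapped reads, which evens out depth between libraries. The version used for R1 is not given in the sources used here. The study kept R1 cells with at least 2000 genes, and the lowest number seen was 2006. E14Tg2a cells were assigned to libraries by the suffix of their barcode, which the study's cell list ties to the labelled stages, and 0 value columns were left unused. The broken header of the E14Tg2a table was rejoined before reading. The members and the gene lists were chosen with earlier results of these data known.

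UMIs were summed per group and divided by the group's total (CPM). Levels have exact Poisson and ratios exact conditional 95% intervals, for counting error only. Calls used a pseudocount of 1 CPM, at least 10 UMIs and 2-fold, and the statistics were tested on simulated data. Clusters came from k-means on 20 principal components of 2000 variable genes without the members, with k of 3, 4 and 9. A cluster was named only where its markers pointed to 1 cell type. Cells that Scrublet called doublets (0.441% of 2i ESC to 7.61% of d2 EpiLC, and 0.706% and 0.647% of the R1 libraries) stayed in, except in an alternative without them. Genes named from the other lists were at most 6 per list and comparison among those at least 2-fold different, by size. The genes most like a member had at least 100 UMIs and a range of at least 1 in log2. Gene positions are those of GENCODE M21 (GRCm38). Alternatives were scaling by the median ratio over genes (size factors), thinning, per-cell means, other pseudocounts, minima and folds, a sum without *Bax*, a reduced total and other clusters. Python 3.11.15, numpy 2.4.6, scipy 1.17.1, pandas 2.3.3, scikit-learn 1.9.0 and scanpy 1.11.5 were used.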

Additional observations from a re-analysis of the deposited data

Results flagged for a closer look

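*Cdkn1a* and *Ccng1* stood out because dCD over WT went in opposite directions in different clusters of the d4 EB. *Cdkn1a* was higher in dCD in cluster 2, with a ratio of 1.70, and lower in cluster 3 at 0.552, in cluster 5 at 0.773 and in cluster 6 at 0.727. *Ccng1* was higher in dCD in cluster 2, at 1.17, and lower in cluster 1 at 0.762, in cluster 3 at 0.781, in cluster 5 at 0.725 and in cluster 6 at 0.818. Each of these intervals excluded 1, but the difference between clusters was not tested, since each genotype was 1 library. Cluster 2 held 107 WT and 363 dCD cells, and 6 of 7 naive pluripotency markers and 4 of 6 PGC markers were at least 2-fold higher in it than in the other cells.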

How the results depend on the processing

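Of 191 alternative values 142 stayed the same, 48 moved and 1 reversed. A ratio was taken as the same within the interval of the reported value. A number of members was taken as the same when it differed by at most 1.5-fold, so it could change. The value that reversed was *Mdm2* in listed PGCLC over other EB cells, 1.28 with both days pooled and 0.961 within the d2 EB. For the 9 targets summed, d1 EpiLC over 2i ESC (1.83) moved to 1.64 with size-factor scaling, 1.93 without *Bax* and 1.71 with mitochondrial and ribosomal protein genes left out of the total, and d2 EB over d2 EpiLC moved to 0.683 with that total. The pooled PGCLC sum (1.27) became 1.37 with size factors, 1.32 as a mean over cells, 1.16 without *Bax*, 1.43 with the reduced total, 1.19 within d2 EB, 1.48 within d4 EB and 1.62 within d4 EB with size factors. Its number of members at least 2-fold higher (0) became 1 with size factors or with the clusters of highest PGC markers, 2 with the reduced total, and 4 at 1.5-fold, within d4 EB, or within d4 EB with size factors. The dCD over WT sum (0.788) became 0.749 without *Bax*, 0.831 with the reduced total and 0.728 without clusters with under 20 cells of a genotype. It became 0.836 with each remaining cluster given the same weight in both genotypes. Members called lower became 4 at 1.5-fold in d2 EB over d2 EpiLC, and for dCD over WT 1 at 1.5-fold and 1 without the small clusters. The range of *Cdkn1a* over d2 EB clusters became 1.98 with a further cluster, and the WT ratio of the 8 targets by cell became 1.47 within clusters. The comparison within clusters by cell and the size-factor scaling within d4 EB were added after the data were seen. Causes were not tested. No paired analysis was possible because each condition was 1 library. Depth limited *Eda2r* most, with 9 UMIs in the d2 PGCLC.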

Other observations

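The cells richest in PGC markers stood at opposite ends of the *Cdkn1a* order in the E14Tg2a and the R1 experiment. In the E14Tg2a d4 EB the cluster that held the 44 listed PGCLC had the highest *Cdkn1a* of 4 clusters, 130 CPM, and the highest *Mdm2*, 92.1 CPM. The 44 listed PGCLC alone stood at 112 CPM of *Cdkn1a*. In the R1 d4 EB cluster 9, in which 6 of 6 PGC markers were at least 2-fold higher than in the other cells, had the lowest *Cdkn1a* of 9 clusters, 36.8 CPM, and the lowest *Mdm2*, 52.0 CPM. *Trp53* was highest in both, at 197 and 465 CPM. Both clusters also carried erythroid markers, 7 of 7 in the E14Tg2a cluster and 6 of 7 in cluster 9. The experiments differ in cell line and chemistry, so no cause was assigned and the difference was not tested.

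Another inhibitor of cyclin-dependent kinases, *Cdkn1c*, was lower in dCD than in WT d4 EB, at 10.7 against 336 CPM. In the E14Tg2a libraries it rose from 50.2 CPM in d2 EpiLC to 347 in d2 EB and 1974 in d4 EB, where *Cdkn1a* stood at 45.5, 34.1 and 53.4 CPM.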
